A study of Mus musculus with 23 samples.

Results

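The 8 genes described here encode the digestive proteases of the pancreas other than trypsin: the elastases *Cela1*, *Cela2a* and *Cela3b*, the chymotrypsinogens *Ctrb1*, *Ctrc* and *Ctrl*, and the carboxypeptidases *Cpa1* and *Cpb1*. They were chosen by symbol, but with earlier results of these data known. All 8 were found among the 18512 gene symbols of the count files. The question was how the transcripts of these enzymes differ between the non-injured pancreas and the pancreas that is recovering from pancreatitis. RNA-seq counts came from the head of the pancreas of 23 C57BL/6 mice, which entered the experiment at 6 to 8 weeks of age. The baseline group held 8 non-injured mice (4 female, 4 male). The day 7 group held 8 mice (4 female, 4 male) and the day 14 group 7 mice (3 female, 4 male), both given caerulein, a peptide that overstimulates acinar cells and so injures the pancreas, with day 0 set at 1 day after the last injection. Caerulein was given into the abdominal cavity at 50 µg/kg, in 8 injections an hour apart on each of 2 days. The groups carried no engineered allele, and whether the baseline mice received a vehicle injection is not given in the sources used here. The tissue was a whole piece next to the duodenum, with no sorting of cells.

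Acinar cells make these proteases as inactive precursors, store them in zymogen granules and secrete them into the duct system. In the gut, trypsin cleaves the precursors into active enzymes. Elastases and chymotrypsins are serine proteases that cut inside a protein, elastases after small and chymotrypsins after large hydrophobic side chains. Carboxypeptidases are zinc enzymes that then remove single residues from the C-terminal end. The acinar transcription factors PTF1 and NR5A2 are known to drive this set of genes.

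Libraries held 7059890 to 9567446 counts each, and no member had fewer than 2013 counts in any mouse, so that counting error was small beside the spread between mice. In the study's mapping statistics, the share of 5′ untranslated exons was lower in every analysed day 14 mouse than in every other mouse. The rate of duplicate reads was higher in every baseline mouse than in every day 7 mouse. The part of these library traits in the group differences was not tested. All 8 members passed the filter on low counts, as did 12195 symbols in all. Levels are given as TMM-scaled CPM (counts per 1e+06 counts of the library), where TMM is a library scaling in edgeR that keeps the bulk of genes level, and a DEG is a gene that passes both an adjusted p of 0.05 and a change of 1.5-fold. The summed level of 10 acinar markers ranged from 101924 to 256781 CPM over the mice. Of 8 markers of intestinal epithelium, 4 were listed in the files, and their sum did not exceed 1.87 CPM in any mouse, although the tissue lay next to the duodenum. At baseline the 8 members took 31.3% ± 1.39 (SD, n = 8) of all counts, and 7 of them, all but *Ctrc*, were among the 20 most abundant symbols.

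At baseline the level per kilobase of annotated exon was highest for *Ctrb1*, at 55744 ± 6910 CPM per kb (SD, n = 8), followed by *Cela2a* at 40182 ± 5335. *Cpa1* (30574 ± 3677), *Cela1* (27634 ± 4244), *Ctrl* (26116 ± 3680) and *Cpb1* (22946 ± 3505) came next in CPM per kb, and each of these differed from its neighbour in the order by less than 1 SD. *Cela3b* had 15935 ± 2777 CPM per kb and *Ctrc* 273 ± 39.1. The order depended on the length used: with the longest annotated transcript of each gene, *Cela2a* came first (64704 CPM per kb) and *Cela1* second (57512 CPM per kb), before *Ctrb1*. *Ctrc* was last with either length. Chymotrypsin C is known for cleaving trypsinogen and so limiting its activation, and C57BL/6 mice are known to carry a *Ctrc* allele that gives no functional enzyme.

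In the GRCm38 annotation (GENCODE vM21), *Cela1* lies at chr15:100674421-100687921 on the minus strand, *Cela3b* at chr4:137420999-137430540 on the minus strand, *Ctrb1* at chr8:111686519-111691010 on the minus strand and *Ctrl* at chr8:105932003-105933862 on the minus strand. *Cpa1* lies at chr6:30639218-30645363 on the plus strand and *Cpb1* at chr3:20248264-20275733 on the minus strand. *Cela2a* (chr4:141814962-141826160, minus strand) lies inside the annotated span of *Ctrc* (chr4:141814962-141846359, minus strand), because a *Ctrc* transcript runs into it, and both share 305 exon bases on that strand. Of the 75-base windows in their transcripts, 85.7% of those of *Cela2a* and 84.3% of those of *Ctrc* occurred in no other gene. *Cela2a* and *Ctrc* shared windows with each other and with *Casp9*. Of the windows of *Cela3b*, 88.6% occurred in no other gene, and it shares the rest with *Cela3a*. The other 5 members shared none. How the counter treated fragments in shared stretches is not given in the sources used here, so the levels of *Cela2a*, *Ctrc* and *Cela3b* are less certain than those of the other members.

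The RefSeq promoter table (GRCm38.p6) held 7 members, each with the 250 bases before and 50 bases after the annotated start. It was searched on both strands for CANNTG and TGGGAA, the letters of both parts of a PTF1 site, and for AAGGNCA, the core of an NR5A2 site. AAGGNCA was found in 6 of the 7, all but *Cpa1*, and in 20.3% of all 32851 promoters. TGGGAA was found in 4 of the 7 (*Cela2a*, *Ctrb1*, *Ctrl* and *Cpa1*) and in 25.6% of all promoters, and CANNTG in 7 of 7 and in 72.3% of all. The matches describe letters only, and binding was not measured. The windows of 30 bases below show a match in each of the 7 promoters, though not the same motif in all. They are written 5′ to 3′ on the strand of the gene, with AAGGNCA or its reverse complement in capitals in the first 6 and TGGGAA in capitals in that of *Cpa1*.
Cela1, chr15:100687959-100687988, minus strand: gctggcaggaggAAGGTCAgcaaagctgct
Cela2a, chr4:141826027-141826056, minus strand: tctctggctgatAAGGCCActcataaaaag
Cela3b, chr4:137430619-137430648, minus strand: gtggttggtgtgTGGCCTTgggccttgaaa
Ctrb1, chr8:111691194-111691223, minus strand: aatcagagcagcTGTCCTTttcccatgggt
Ctrl, chr8:105933876-105933905, minus strand: agacttctgcccAAGGACAaggatgtccat
Cpb1, chr3:20275726-20275755, minus strand: aagatctgatagTGGCCTTttttcagagtg
Cpa1, chr6:30639186-30639215, plus strand: tatctggggctgTGGGAAaccgaatgagta
The AAGGNCA match began 56 bases before the start in *Cela1*, 39 in *Cela2a*, 116 in *Cela3b*, 201 in *Ctrb1*, 31 in *Ctrl* (with a further match at 244) and 10 in *Cpb1*, so the members had no common spacing.

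At day 7 the 8 genes were lower than at baseline, by a median of 0.69 on the log2 scale, and 6 of them were DEGs (*Cela1*, *Cela3b*, *Ctrb1*, *Ctrc*, *Ctrl* and *Cpa1*). Over all tested genes, 1.31% were DEGs with a lower level. *Cela2a* and *Cpb1* fell with an adjusted p under 0.05 but by less than 1.5-fold, which makes 8 of 8 members by the adjusted p alone, beside 9.7% of all genes. In *Cela1*, *Cela3b*, *Ctrb1*, *Ctrl* and *Cpa1* every day 7 mouse was below every baseline mouse, as in 1.59% of all genes. The median of all tested genes was 0.02.

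Among the carboxypeptidases, *Cpa1*, which removes aromatic and aliphatic residues, had the largest fall of the 8. Its baseline levels ran from 42568 CPM through a median of 51765 to 64057. At day 7 they ran from 22136 through 29313 to 35037 CPM, with no overlap between the groups. The log2 fold change was -0.87 (SE 0.09, adjusted p = 1.83e-07, edgeR). For *Cpb1*, which removes the basic residues lysine and arginine, baseline levels were 54811 to 92932 CPM (median 77698), and day 7 levels were 39480 to 62155 CPM (median 53382). In *Cpb1* 5 of the 8 day 7 mice were below every baseline mouse. Its log2 fold change was the smallest of the 8, at -0.53 (SE 0.09, adjusted p = 1.84e-04, edgeR).

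The 3 chymotrypsinogens fell by 0.67 to 0.74 on the log2 scale. *Ctrb1*, which encodes chymotrypsinogen B, had 41412 to 58049 CPM at baseline (median 48728) and 23189 to 37467 at day 7 (median 29578), without overlap. Its log2 fold change was -0.70 (SE 0.09, adjusted p = 4.23e-06, edgeR). *Ctrl*, for chymotrypsin-like protease, had 23711 to 37281 CPM at baseline (median 29761) and 14170 to 22246 at day 7 (median 18089), again without overlap. Its log2 fold change was -0.74 (SE 0.09, adjusted p = 3.82e-06, edgeR). *Ctrc* fell in the same range although its level was far lower, with 280 to 458 CPM at baseline (median 396) and 176 to 307 at day 7 (median 244). Its groups overlapped, 6 of 8 day 7 mice lay below every baseline mouse, and the log2 fold change was -0.67 (SE 0.10, adjusted p = 3.45e-05, edgeR).

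Among the elastases, *Cela3b* had 19547 to 35702 CPM at baseline (median 26432) and 12815 to 18747 at day 7 (median 15750). No day 7 mouse reached the baseline range, and the log2 fold change was -0.74 (SE 0.09, adjusted p = 3.29e-06, edgeR). *Cela1* had 49821 to 77181 CPM at baseline (median 61592) and 31280 to 47613 at day 7 (median 43157), also without overlap. Its log2 fold change of -0.62 (SE 0.09, adjusted p = 3.03e-05, edgeR) stayed below 0 but under 1.5-fold when baseline mouse 7 (-0.58) or day 7 mouse 10 (-0.57) was left out. *Cela2a* had 52452 to 83580 CPM at baseline (median 71127) and 35888 to 52795 at day 7 (median 47773), and 7 of 8 day 7 mice were below every baseline mouse. Its log2 fold change was -0.56 (SE 0.09, adjusted p = 4.35e-05, edgeR). *Cela2a* passed 1.5-fold when baseline mouse 4 (-0.61) or day 7 mouse 11 (-0.59), 12 (-0.60) or 16 (-0.59) was left out.

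**Figure D1:**
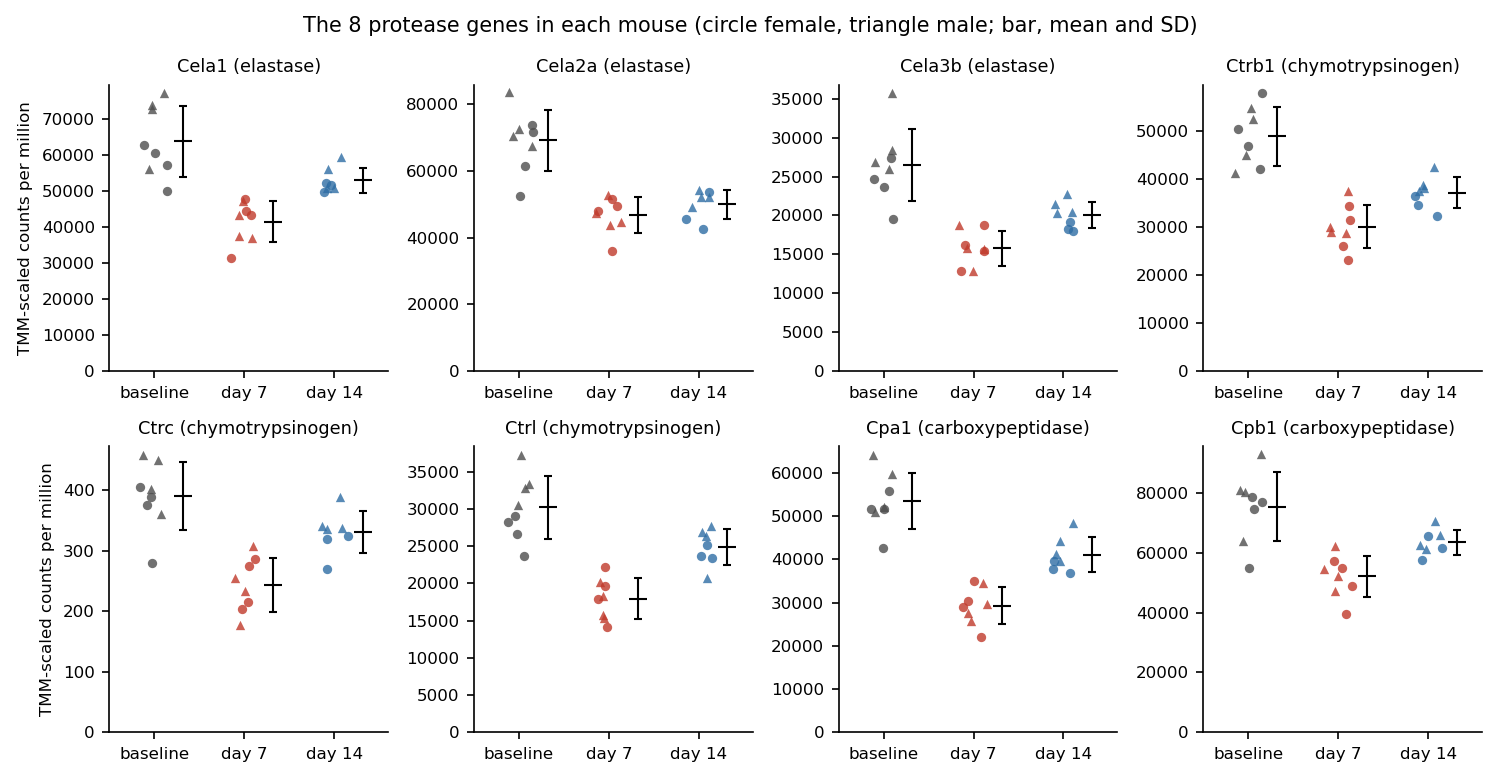
Levels of the 8 genes in TMM-scaled CPM (vertical axes, from 0) in each mouse at baseline (8 mice), day 7 (8) and day 14 (7); circles are females, triangles are males, and bars give the mean and SD. The day 7 mice lie below all baseline mice for *Cela1*, *Cela3b*, *Ctrb1*, *Ctrl* and *Cpa1*, and the day 14 mice lie above all day 7 mice for *Cela1* and *Cpa1*.

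In 7 of the 23 mice all 8 genes lay on the same side of the group mean of log2 CPM, and in the other 16 they lay on both sides, such as in baseline mouse 7 (deviations from -0.23 to 0.32). Baseline mouse 4 was below the group mean in all 8 genes (mean deviation -0.37), baseline mouse 6 was above it in all 8 (0.26), and day 7 mouse 10 was below it in all 8 (-0.34). The TMM factors of these mice were 1.003, 0.769 and 1.40, against 0.813 to 0.917 in the other baseline mice and 1.05 to 1.24 in the other day 7 mice. No single value of a member in any of the 3 groups was an outlier by Dixon's test (24 sets of values). The count of 6 DEGs among the members at day 7 lay between 5 and 7 whichever mouse was left out.

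The size of the fall at day 7 depended on what the libraries were scaled to. Scaled by total counts, the median log2 fold change of the members was -0.24 and that of all genes 0.48. Scaled by 15 other acinar secretory genes, the medians were -0.18 and 0.55. Relative to the median of all genes, the members stood at -0.71 with TMM, -0.72 with total counts and -0.73 with the acinar scaling. A change of scaling shifts all genes of a library about alike. These values are therefore near equal by construction and are no check of the fall. No member changed direction at day 7 with either scaling, and 0 of the 8 remained DEGs. By the adjusted p alone 6 members still fell with total counts, all but *Cela2a* (-0.11) and *Cpb1* (-0.08), beside 0.525% of all genes. With the acinar scaling 4 fell, beside 0.385% of all genes: *Cela3b* (-0.22), *Ctrb1* (-0.19), *Ctrl* (-0.23) and *Cpa1* (-0.35), and *Cpb1* lay at -0.003. Those 4 were thus lower at day 7 also in relation to the geometric mean of the 15 other acinar genes. They were not lower than each of the 15. With TMM, *Sycn* (-1.15) and *Pnlip* (-0.88) fell further than *Ctrb1* (-0.70) and *Cpa1* (-0.87), while the median of the 15 was -0.46. Over all genes, these scalings turned the DEGs at day 7 from 160 lower and 466 higher to 21 lower and 3706 higher with total counts and to 18 lower and 5047 higher with the acinar scaling.

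**Figure D2:**
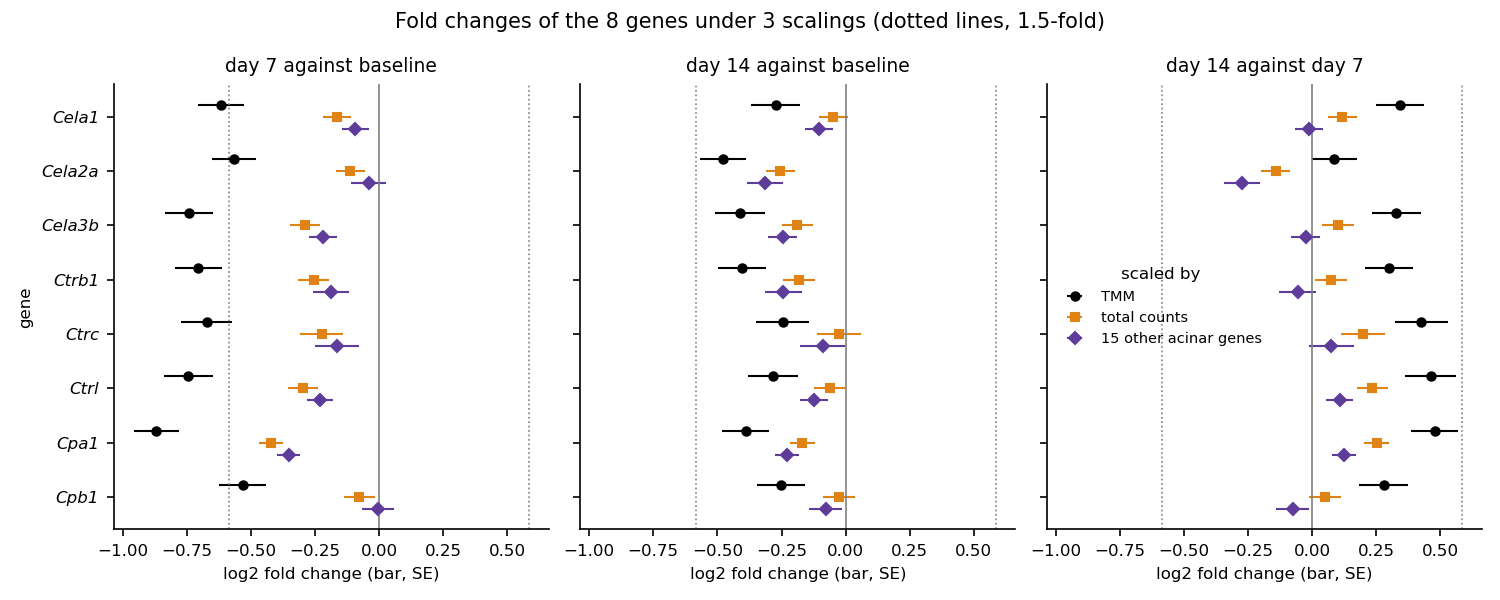
Log2 fold change of each gene (horizontal axis; bars are 1 SE) in the 3 comparisons of time points, with libraries scaled by TMM, by total counts or by 15 other acinar secretory genes; dotted lines mark 1.5-fold. *Cpa1* is farthest below 0 at day 7 under each scaling, from -0.87 with TMM to -0.35 with the acinar scaling, and *Cela2a* is farthest below 0 at day 14; between day 7 and day 14, *Cela2a* turns negative with total counts and *Cela1*, *Cela2a*, *Cela3b*, *Ctrb1* and *Cpb1* with the acinar scaling.

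At day 14 all 8 members had lower fitted levels than the baseline mice (median log2 fold change -0.34), and none was a DEG in edgeR (0.0902% of all genes were DEGs with a lower level). By the adjusted p alone 4 were lower (*Cela2a*, *Cela3b*, *Ctrb1* and *Cpa1*), beside 0.525% of all genes, and all 8 had an unadjusted p under 0.05, beside 6.5% of all genes. The day 7 and day 14 comparisons share the same 8 baseline mice. No member's day 14 mice lay wholly below the baseline mice, as they did in 0.23% of all genes.

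*Cela2a* was the lowest relative to baseline at day 14. Its levels were 42512 to 54312 CPM (median 52319), and 5 of 7 mice lay below every baseline mouse. The log2 fold change was -0.48 (SE 0.09, adjusted p = 0.00304, edgeR), and it stayed below 0 with an adjusted p under 0.05 with total counts (-0.25, adjusted p = 0.00308) and with the acinar scaling (-0.31, adjusted p = 0.0161), as it did in all 32 alternatives and omissions of a mouse, where the adjusted p of *Cela2a* ran from 2.49e-06 to 0.0161. *Cela3b* had 18029 to 22784 CPM (median 20318) and a log2 fold change of -0.41 (SE 0.10, adjusted p = 0.0214, edgeR). Of its day 14 mice 3 lay below every baseline mouse. *Ctrb1* had 32282 to 42606 CPM (median 37591), 6 of 7 mice below every baseline mouse, and a log2 fold change of -0.40 (SE 0.09, adjusted p = 0.0213, edgeR). *Cpa1* had 36769 to 48263 CPM (median 39619), 5 of 7 mice below every baseline mouse, and a log2 fold change of -0.39 (SE 0.09, adjusted p = 0.0227, edgeR). In the other 4, no more than 3 of 7 mice lay below every baseline mouse. *Cela1* at -0.27, *Ctrc* at -0.25, *Ctrl* at -0.28 and *Cpb1* at -0.25 on the log2 scale had adjusted p-values of 0.158 to 0.279 (edgeR). Across the alternatives tried, 1 to 5 members were lower at day 14 by the adjusted p.

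From day 7 to day 14 the fitted level of each member was higher (median log2 fold change 0.34 with TMM), but *Cela2a* turned negative with total counts (-0.14) and *Cela1*, *Cela2a*, *Cela3b*, *Ctrb1* and *Cpb1* with the acinar scaling (-0.01 to -0.27). None of the 8 was a DEG in edgeR, beside 0.205% of all genes higher, and 7 had an unadjusted p under 0.05, beside 7.92% of all genes higher. By the adjusted p alone *Cpa1* (0.48, SE 0.09, adjusted p = 0.00493), *Ctrl* (0.46, SE 0.10, adjusted p = 0.0119) and *Ctrc* (0.43, SE 0.10, adjusted p = 0.0297) rose in edgeR, beside 1.01% of all 12195 genes. With DESeq2 7 rose, all but *Cela2a*, beside 3.36% of the 7737 genes to which DESeq2 gave an adjusted p. *Ctrc* lost its call with total counts (0.20, adjusted p = 0.0724) and with the acinar scaling (0.08, adjusted p = 0.435), and *Ctrl* with the acinar scaling (0.11, adjusted p = 0.0790). The rise of *Cpa1* kept an adjusted p of 8.38e-06 to 0.0243 in all 32 alternatives and omissions of a mouse. All 7 day 14 mice were above all 8 day 7 mice in *Cela1* (49579 to 59341 CPM at day 14) and in *Cpa1*, as in 0.41% of all genes. *Cela2a* differed least between the days with TMM, at 0.09 (SE 0.09, adjusted p = 0.698, edgeR), but with the acinar scaling it had the largest difference of the 8 and fell by 0.27 (adjusted p = 0.00349, edgeR; 0.00349 to 0.863 over its alternatives), in a fit where 60.1% of all genes fell. *Ctrl* at day 14 had 20788 to 27661 CPM (median 25192) and *Ctrc* 270 to 388 (median 336), with 6 of 7 mice of each above every day 7 mouse. *Cpb1* had 57632 to 70468 CPM at day 14 (median 62411), and 4 of 7 mice were above every day 7 mouse.

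Because a ratio of 2 genes within a mouse does not depend on library scaling, the 7 pairs within a class were compared for each of the 3 group comparisons, which made 21 exact permutation tests (two-sided, over mice). *Cpa1* fell against *Cpb1* at day 7. The ratio of their counts was 0.559 to 0.798 at baseline (geometric mean 0.713) and 0.476 to 0.633 at day 7 (0.561), with 4 of 8 day 7 mice below every baseline mouse. The log2 difference was -0.35 (exact permutation p = 0.00155, adjusted over the 21 tests 0.0163), and it ranged from -0.40 to -0.31 when each mouse was left out. At day 14 the *Cpa1* to *Cpb1* ratio was 0.561 to 0.773 (geometric mean 0.645), and neither its difference from baseline (-0.14, adjusted exact permutation p = 0.282) nor from day 7 (0.20, adjusted exact permutation p = 0.101) passed. *Cela2a* parted from both other elastases between day 7 and day 14. These groups also differed in the share of 5′ untranslated exons, whose part in the ratios was not tested. The *Cela1* to *Cela2a* ratio was 0.780 to 0.963 at day 7 (geometric mean 0.884) and 0.937 to 1.21 at day 14 (1.06), a log2 difference of 0.26 (exact permutation p = 4.66e-04, adjusted 0.00979), with 6 of 7 day 14 mice above every day 7 mouse. The *Cela2a* to *Cela3b* ratio was 2.64 to 3.68 at day 7 and 2.22 to 2.97 at day 14, a log2 difference of -0.25 (exact permutation p = 0.00684, adjusted 0.0479). That last call was lost in 13 of the 15 cases in which a mouse of either group was left out, with adjusted p-values of up to 0.0897, while the difference stayed between -0.30 and -0.21. The remaining 18 tests had adjusted p-values from 0.0840 to 0.871. Among the chymotrypsinogens 0 of 9 tests passed, and the *Ctrb1* to *Ctrl* ratio had geometric means of 1.62, 1.68 and 1.498 at baseline, day 7 and day 14.

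**Figure D3:**
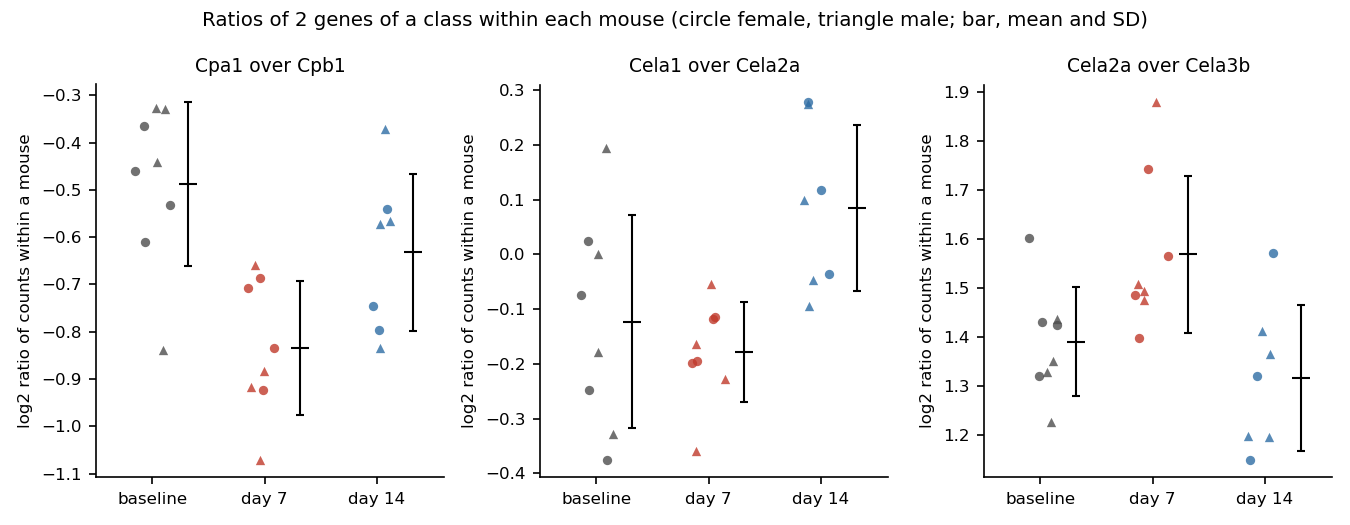
Log2 ratio of the counts of 2 genes within each mouse (vertical axes, not from 0) for *Cpa1* over *Cpb1*, *Cela1* over *Cela2a* and *Cela2a* over *Cela3b*; circles are females, triangles are males, and bars give the mean and SD of 8, 8 and 7 mice. *Cpa1* over *Cpb1* is lower at day 7 by 0.35, and at day 14 *Cela1* over *Cela2a* is higher by 0.26 and *Cela2a* over *Cela3b* lower by 0.25 than at day 7.

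Summed, the 8 genes took 25.0% to 28.2% of all counts at day 7 (27.2% ± 1.08, SD, n = 8) and 27.5% to 29.98% at day 14 (28.7% ± 0.854, SD, n = 7), against 28.6% to 33.1% at baseline. Every day 7 mouse was below every baseline mouse in this share, while day 14 overlapped both. Within the sum, *Cpa1* made up 14.6% ± 0.602 at baseline, 12.5% ± 0.550 at day 7 and 14.1% ± 0.707 at day 14 (SD, n = 8, 8 and 7). *Cela2a* made up 18.8% ± 1.16, 20.0% ± 1.19 and 17.2% ± 1.12 in the same order, and *Cpb1* 20.5% ± 1.71, 22.3% ± 1.57 and 21.9% ± 1.66. *Ctrc* made up 0.106%, 0.105% and 0.114%.

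**Figure D4:**
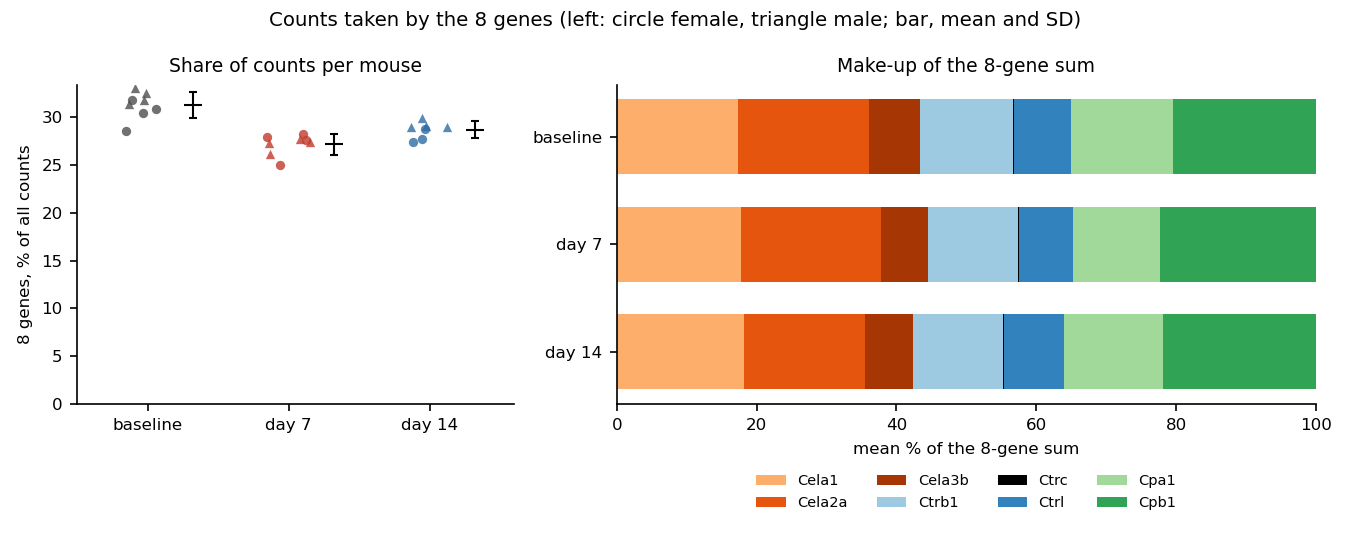
Left, percent of all counts taken by the 8 genes in each mouse (circles females, triangles males; bars, mean and SD); right, mean percent of the 8-gene sum taken by each gene at baseline, day 7 and day 14. The mean share, 31.3% in the baseline mice, was 27.2% at day 7 and 28.7% at day 14, and *Cpa1* took 14.6%, 12.5% and 14.1% of the sum.

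No member passed the test between the sexes. Over all time points 0 of 8 members had an adjusted p of at most 0.05 between males and females in edgeR, beside 0.574% of all genes. The fitted differences ran from 0.09 to 0.16 on the log2 scale, higher in males, and only *Cela3b* (0.16, adjusted p = 0.531) had an unadjusted p under 0.05, as did 9.0% of all genes. At day 7 each sex had lower fitted levels than its own baseline in all 8 genes, with 3 DEGs in females (*Cela3b*, *Ctrb1* and *Cpa1*), beside 0.936% of all genes lower, and 7 in males (all but *Cpb1*), beside 1.24%. The interaction of sex and day 7 passed for 0 of 8 members, beside 0.00773% of all genes, and the difference between those counts was thus not shown. It had the smallest p for *Ctrl*, whose log2 fold change was -0.55 in females and -0.95 in males (interaction -0.40, unadjusted p = 0.0414, adjusted p = 0.913, edgeR), the only member with an unadjusted p under 0.05, beside 5.45% of all genes. The interaction with day 14 also passed for 0 of 8, beside 0.0% of all genes, and 0 members had an unadjusted p under 0.05, beside 3.66% of all genes.

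Of 17 other secretory products of acinar cells, all tested, 15 had fitted levels below baseline at day 7 and 2 above. By the adjusted p alone 12 were lower and 1 higher, 4 were DEGs with lower levels and 1 with a higher level. Over all 12195 tested genes, 160 were DEGs with lower and 466 with higher levels, and 9.7% were lower by the adjusted p alone. The median log2 fold change of the 17 was -0.45, beside -0.69 for the 8 members. *Pnlip*, for pancreatic lipase, fell by 0.88 on the log2 scale, *Sycn*, for the granule protein syncollin, by 1.15, and *Rnase1*, for pancreatic ribonuclease, by 0.83. *Cela3a*, a close relative of *Cela3b* with some identical stretches, was the one that rose. *Cela3a* had 139 to 268 counts per mouse at baseline and 307 to 623 at day 7, or 30.4 ± 4.42 and 48.7 ± 12.8 CPM (SD, n = 8 each), with a log2 fold change of 0.67 (adjusted p = 0.00333, edgeR). At day 14 none of the 17 was a DEG, beside 96 of all 12195 tested genes. Their median was then -0.13, beside -0.34 for the members. Of 12 trypsinogens, 2 were DEGs with lower levels at day 7, the abundant *Prss2* (-0.94) and *2210010C04Rik* (-0.74), and 6 with higher levels. Those with the smallest adjusted p among the 6 were *Gm2663* (9.61), *1810009J06Rik* (6.48) and *Gm10334* (3.32). Their mean levels were 0.223, 1.05 and 4.85 CPM at baseline and 199, 93.6 and 48.8 CPM at day 7. All of these named risers were also DEGs with higher levels at day 14. In the study, RT-qPCR of *Gm2663* followed its RNA-seq trend. Trypsinogen genes are close copies of each other, so their single counts are uncertain.

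The 12 acinar transcription factors, PTF1 and NR5A2 genes among them, held 0 DEGs at day 7. Over all 12195 tested genes 626 were DEGs, and 2264 passed by the adjusted p alone. The count of 0 in 12 lies near the share of DEGs over all genes. Log2 fold changes of the 12 ran from -0.38 to 0.29 (median -0.12). By the adjusted p alone 3 fell and 1 rose, named after their values were seen: *Rbpjl*, the acinar subunit of PTF1 (-0.36, adjusted p = 0.00490, edgeR), *Gata4* (-0.34, adjusted p = 0.00556) and *Bhlha15* (-0.29, adjusted p = 0.00940) fell, and *Rbpj*, the relative of *Rbpjl* found in many tissues, rose (0.29, adjusted p = 0.00508). Of 13 protease inhibitors 5 were tested, and *Slpi*, for a secreted leukocyte protease inhibitor, was a DEG (0.75, adjusted p = 0.0243, edgeR) at 2.59 ± 1.05 CPM at baseline and 4.39 ± 1.77 at day 7 (SD, n = 8 each). Of 21 elastases, chymases and carboxypeptidases known mainly from other cells, 17 were in the files and 10 were tested. *Cpe*, the carboxypeptidase that processes hormones in endocrine cells, was the only DEG among them, and it rose by 0.89 (adjusted p = 7.54e-04, edgeR). At day 14 the transcription factors, inhibitors and relatives held 0 DEGs, beside 96 of all 12195 tested genes.

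Over the 23 mice, the gene whose centred log2 CPM lay nearest to the mean profile of the 8 members was *Cel*, for carboxyl ester lipase, at a root mean square difference of 0.08. Next came *2210010C04Rik*, a trypsinogen (0.11), *Tpt1* (0.12), *Pnlip* (0.12) and *Ttyh1* (0.12). The median gene lay at 0.40 and a flat profile at 0.32. The members themselves lay at 0.08 (*Cela3b*) to 0.14 (*Ctrc*) from the mean that they helped to form. Taken singly, *Cel* was the nearest gene outside the set for *Cela1*, *Ctrb1* and *Cpb1*, *Pnlip* for *Cela3b* and *Cpa1*, *Rnase1* for *Ctrl* and *Ctrc*, and *Pnliprp1* for *Cela2a*. These profiles share the library scaling, and the measure is a description.

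Markers of other cells moved in the same mice. Over all 12195 tested genes, 160 were DEGs with lower and 466 with higher levels at day 7, and 96 were DEGs at day 14. The sum of 10 macrophage markers had a median of 84.3 CPM at baseline (54.8 to 206), 213 at day 7 (132 to 308) and 124 at day 14 (90.8 to 176), and 9 of the 10 were DEGs with higher levels at day 7. The sum of 9 fibroblast and stellate cell markers was 406, 798 and 572 CPM in the same order, with 6 of 9 higher at day 7 (ranges 321 to 638, 608 to 1153 and 514 to 741). At day 14, where 4 members were lower by the adjusted p, *Lum* (0.90, adjusted p = 0.00364, edgeR) and *Pdgfra* (0.63, adjusted p = 4.40e-04, edgeR) of these 9 were still DEGs with higher levels, while the 10 macrophage, 8 islet and 8 duct markers held 0 DEGs. The 8 islet markers summed to 395, 752 and 529 CPM (ranges 127 to 549, 398 to 1144 and 429 to 852), with 4 of 8 higher. Of 8 duct markers 3 were DEGs with higher levels at day 7, but 4 of the 8 had fitted levels below baseline. Their log2 fold changes ran from -0.37 to 0.74, with a median of 0.03. The duct sum was 182 CPM at baseline (145 to 216), 205 at day 7 (164 to 263) and 199 at day 14 (184 to 210). Of 10 lymphocyte, 6 endothelial, 6 adipocyte and 6 mast cell markers, 5, 6, 5 and 2 were tested and 0 were DEGs at either day. The lymphocyte sums reached 64.2 CPM at baseline, 114 at day 7 and 69.2 at day 14, the endothelial ones 128, 114 and 110, the adipocyte ones 65.1, 115 and 81.2, and the mast cell ones 36.5, 45.4 and 40.1. The acinar markers, which include secretory products, had summed medians of 218377 CPM at baseline, 133057 at day 7, where 2 of 10 were lower as DEGs, and 175989 at day 14. Of the markers listed in the files, none was at 0 in all mice of a group, apart from *Fcer1a* of mast cells at day 14 and *Fabp2* of the intestine at baseline. The part of these shifts in the fall of the 8 members was not tested, and in bulk tissue fewer acinar cells cannot be told apart from less protease RNA in each.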

How the data were processed

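Per the labels and the study's methods, total RNA of pancreas head tissue was depleted of ribosomal RNA and made into stranded libraries. Paired reads were trimmed (Trim Galore, cutadapt), aligned to mm10 with STAR 2.5.2a and counted per gene with featureCounts. The deposited values are raw counts of uniquely mapped fragments per gene symbol, 1 file per mouse, and the strand setting and annotation are not given in the sources used here. Mouse 20 is not analysed here.

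The 8 members and all gene lists were chosen with earlier results of these data known. Mice are separate animals, grouped by title. Symbols kept by filterByExpr (12195) were scaled by TMM and entered edgeR 4.0.16 under R 4.3.3: 1 fit over the 23 mice that also held a term for sex, glmQLFit (robust) and glmQLFTest, two-sided, and Benjamini-Hochberg adjustment over all genes tested. All adjusted p-values of single genes are from this fit unless another tool is named. The interaction came from a fit of 6 sex and time groups (12933 genes). An SE is the absolute log2 fold change over the square root of F, and so restates the test. Centred profiles used log2 CPM with a prior count of 2, and ratios used counts plus 0.5. Besides the members, up to 3 genes per list and direction with the smallest adjusted p among the DEGs of day 7 are named, and the genes nearest in profile. Alternatives were DESeq2 1.42.0, other scalings, filters, covariates and samples, no fold change threshold, and leaving out each mouse. The edgeR fit was tested on simulated data of day 7 against baseline (12195 genes). There, an adjusted p of at most 0.05 recovered 72% of 50 genes changed 1.5-fold and 94% of 50 changed 2-fold. The simulated libraries had the same expected make-up apart from the genes changed, so the simulation cannot judge the choice of scaling. The least detectable share, 3 counts, was 3.14e-05% to 4.25e-05% of a library, which covers counting error only. Python 3.11.15 with scipy 1.17.1 did the permutation tests.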

Additional observations from a re-analysis of the deposited data

How the results depend on the processing

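No paired analysis was possible because each mouse number belongs to 1 animal in 1 group. The fall of the 8 members at day 7 kept its direction in all alternatives tried (80 values from other settings and 184 without a mouse), and so did the lower levels at day 14. Among the 80, the values without the fold threshold repeat the main fit and could not turn. Among the 184, those without a mouse of the group not compared left both compared groups whole, and so check the direction little. From day 7 to day 14 the direction turned with the acinar scaling for *Cela1* (-0.0114), *Cela2a* (-0.27), *Cela3b* (-0.0254), *Ctrb1* (-0.0565) and *Cpb1* (-0.0754), and with total counts for *Cela2a* (-0.14); both scalings move the level of all genes by construction. DEGs among the members at day 7 numbered 6, and 0 with total counts or the acinar scaling. Without the fold threshold 4 members passed at day 14 (1 to 5 over the alternatives) and 3 from day 7 to day 14 (2 to 7). Over all genes, DEGs at day 7 numbered 626, 3727 with total counts, 5065 with the acinar scaling, 348 with at least 10 counts in every mouse (fewer genes tested) and 2264 without the fold threshold. The same counts were 96, 449, 158 and 192 at day 14 (total counts, acinar scaling, no fold threshold) and 46, 477, 1384 and 157 from day 7 to day 14, with 30 under the stricter filter. Leaving out a mouse gave 22 to 57 from day 7 to day 14, with 23 without day 7 mouse 15, and 22 and 29 without day 14 mice 22 and 24. The 1 gene past the sex by day 7 interaction became 18 with DESeq2 and 0 to 7 without a mouse, where 7 came without day 7 mouse 15; no member was among the calls of the main test. Without the 20 most abundant other genes in the denominator, the members took 54.0%, 43.2% and 48.3% of the counts at baseline, day 7 and day 14. With the longest transcript as length, baseline levels in CPM per kb were 57512 for *Cela1*, 64704 for *Cela2a*, 27185 for *Cela3b*, 408 for *Ctrc*, 34345 for *Ctrl* and 27724 for *Cpb1*. The count of 3 ratios past the threshold was 2 to 4 without a mouse.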
